A study of Mus musculus with 6 samples.

Results

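Complement is a cascade of plasma proteins that tags particles and cells for removal. The genes described here are 9 of its components and regulators in mouse kidney, taken as a list of symbols: C1qa, C1qb, C1qc, C1ra, C1s1, C4b, C3, Cfb and Cfi. All 9 were found among the 56923 gene identifiers of the count tables, and all 9 were among the 18273 genes with enough reads to be tested. RNA sequencing covered 6 whole kidneys of male mice, 3 controls and 3 with induced deletion of Pkd1, the gene of polycystin-1, which is mutated in most autosomal dominant polycystic kidney disease.

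Control mice carried Pkd1flox/flox.Tet-O-Cre, that is both Pkd1 alleles floxed and a tetracycline-operated Cre recombinase. The knockout group (Pkd1 KO) carried Pkd1flox/flox.Pax8rtTA.Tet-O-Cre, which adds the doxycycline-dependent activator rtTA under the Pax8 promoter, active in tubule cells. Both groups received doxycycline (2 mg/ml, in water with 5% sucrose) over 14 days, starting on postnatal day 28 and ending on day 42. Deletion was thereby placed in weeks 5 and 6 after birth, and kidneys were analysed at 10 weeks. Cells without Pax8 activity, such as macrophages and fibroblasts, keep their Pkd1 alleles in this model but are part of the sampled tissue. The comparison asked here is which complement transcripts differ between Pkd1 KO kidneys and the control kidneys, which the submitters call non-cystic.

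The classical pathway starts when C1q, a bundle of C1qa, C1qb and C1qc chains, binds antibody or damaged cells and switches on the proteases C1r and C1s, which cut C4 and C2. All routes meet at C3, whose active fragment binds surfaces covalently. Factor B and factor D form the alternative loop that amplifies C3 cleavage, and factor I, with the help of cofactors, ends it by cutting C3b and C4b. In tissue C1q is made mainly by macrophages, whereas the kidney tubule can make C3, C4 and factor B itself.

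Libraries held 45020173 to 62983791 gene counts, of which the 9 genes together took 4808 to 9477. Pkd1 itself stood at 33.3 ± 11.8 CPM in control kidneys and 9.26 ± 0.655 in Pkd1 KO kidneys (SD, n = 3 each; CPM, gene counts scaled to a common depth after TMM scaling of library sizes). Each group was sequenced in a project of its own (2 projects, 0 with both groups), so what follows cannot be told apart from a difference between projects. Across all genes the change was broad: 8579 of 18273 (46.9%) passed edgeR's quasi-likelihood test at an adjusted p under 0.05, 4148 higher (22.7%) and 4431 lower (24.2%). Upper-quartile scaling turned that split to 5274 higher and 3447 lower and put the median over all tested genes at a log2 fold change of 0.19 in place of 0.03. A second edgeR fit, with offsets for the GC content and length of genes, fitted library by library, is given beside each of the 9 genes and most others named; it called 34.8% of 17785 genes, 16.8% higher and 18.1% lower, and gave Pkd1 a log2 fold change of −0.49 against −1.85 without offsets. The 10 listed proximal tubule genes, mostly Kap, summed to 36634 to 42891 CPM in controls and 50151 to 58569 CPM in Pkd1 KO kidneys. The labels do not say more of the animals, so p-values measure the spread between these samples, which may be technical.

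Of the 9 complement genes, 4 rose (C1qa, C1qb, C1qc and Cfi), 2 fell (C1ra and Cfb) and 3 were not called (C1s1, C3 and C4b). The 6 calls are 66.7% of the genes, beside the 46.9% of all tested genes. The same 6 genes had groups that did not overlap, as did 61.2% of all tested genes (31.2% with Pkd1 KO above and 30.0% with Pkd1 KO below). Over all 9 genes the median log2 fold change was 0.24, against 0.03 over all genes tested. With the offsets 4 were higher (C1qb, C1qc, C3 and Cfi) and 2 lower (C1ra and Cfb). Without KO 2 only 3 calls were left (C1qb and Cfi higher, C1ra lower), and the calls over all genes went down to 5071 of 18685.

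**Figure D1:**
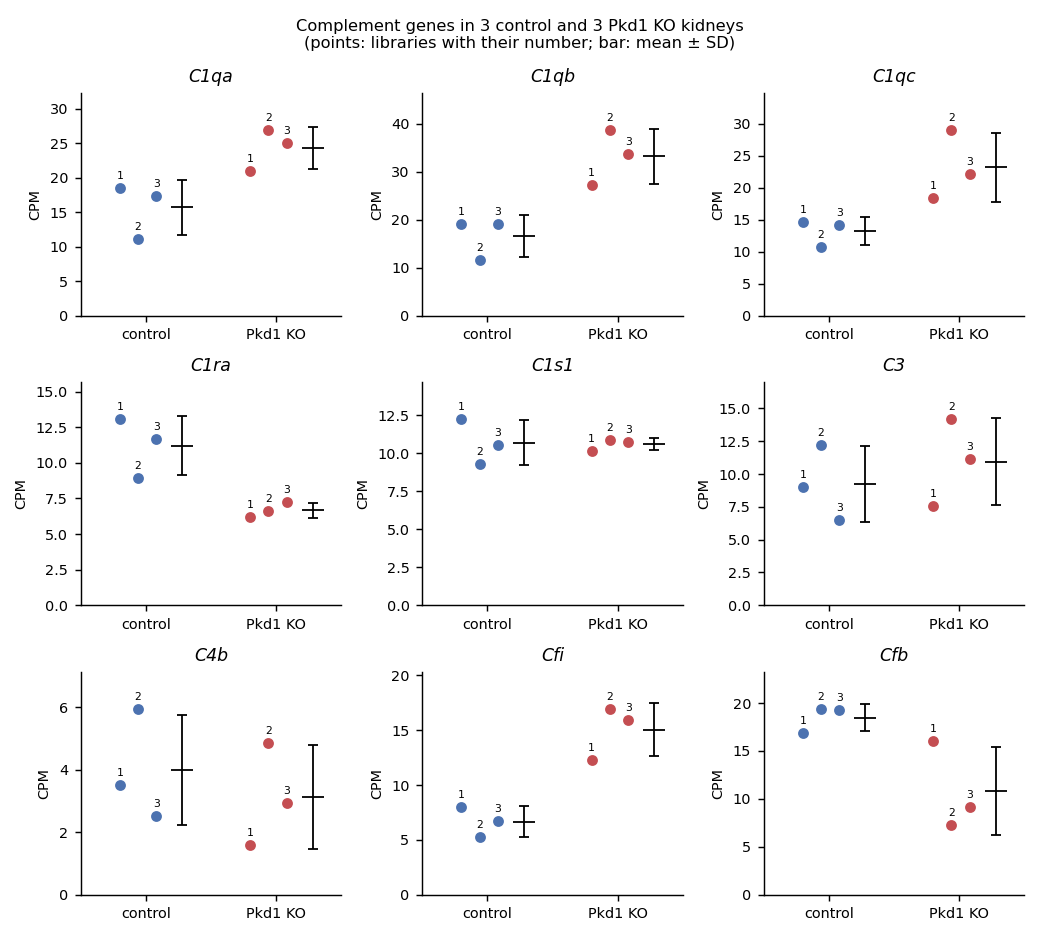
CPM of the 9 complement genes (vertical axes, from 0) in the 3 control (blue) and 3 Pkd1 KO (red) libraries, each point labelled with its library number, with the mean and SD as a bar. All Pkd1 KO points lie above all control points for C1qa, C1qb, C1qc and Cfi and below them for C1ra and Cfb, and the groups overlap for C1s1, C3 and C4b.

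All 3 chains of C1q, the recognition molecule, rose in Pkd1 KO kidneys. C1qb (ENSMUSG00000036905) had 19.2, 11.5 and 19.04 CPM in controls 1 to 3 and 27.1, 38.7 and 33.7 CPM in KO 1 to 3. Every Pkd1 KO kidney was above every control, and control 2 was the lowest of all. Group means were 16.6 ± 4.38 CPM for controls and 33.2 ± 5.79 CPM for Pkd1 KO kidneys (SD, n = 3 each), which gave a log2 fold change of 1.002 ± 0.22 (SE), or 2.002-fold, with an edgeR adjusted p of 0.00762. With the offsets it was 0.75 ± 0.18 (edgeR adjusted p = 0.0131), and its call held with each library left out.

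C1qc (ENSMUSG00000036896) had 14.7, 10.7 and 14.2 CPM in control kidneys and 18.4, 29.01 and 22.1 CPM in Pkd1 KO kidneys. The order of libraries was that of C1qb, with KO 2 highest and control 2 lowest. Its log2 fold change was 0.81 ± 0.21 (edgeR adjusted p = 0.0121) and 0.92 ± 0.20 with the offsets (edgeR adjusted p = 0.0077). Without KO 2 the call ended at 0.62 (edgeR adjusted p = 0.0603).

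C1qa (ENSMUSG00000036887) changed least of the 3, from 18.5, 11.2 and 17.4 CPM in controls to 20.99, 26.9 and 24.97 CPM in Pkd1 KO kidneys. The groups did not overlap, but KO 1 lay close to control 1. The log2 fold change was 0.63 ± 0.21 with an edgeR adjusted p of 0.0338. This call ended with the offsets (0.46 ± 0.17, edgeR adjusted p = 0.0589) and without KO 1 (0.72, adjusted p = 0.0533), KO 2 (0.55, adjusted p = 0.126) or KO 3 (0.61, adjusted p = 0.0962).

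The C1q chains come together in equal numbers in the protein, and their genes lie side by side on chromosome 4, with no other tested protein-coding gene between them in RefSeq's gene order. Per kilobase of exon the chains were not equal in level, but this rests on the lengths used. Those take in every exon base annotated to a gene, 1040 for C1qa, 1088 for C1qb and 1931 for C1qc. They need not be the lengths of the transcripts expressed. Without division by length the control means of C1qa, C1qb and C1qc were 15.7, 16.6 and 13.2 CPM. In controls C1qa stood at 15.1 ± 3.81, C1qb at 15.2 ± 4.02 and C1qc at 6.83 ± 1.13 CPM per kilobase (SD, n = 3). In Pkd1 KO kidneys the same levels were 23.4 ± 2.9, 30.5 ± 5.32 and 12.0 ± 2.8 CPM per kilobase. C1qb thereby went from 40.8% ± 1.33 to 46.3% ± 0.534 of the summed per-length level of the 3 chains, and C1qa from 40.5% ± 0.749 to 35.6% ± 1.61. The within-library log2 ratio of C1qa to C1qb was −0.05, −0.04 and −0.13 in controls and −0.36, −0.52 and −0.43 in Pkd1 KO kidneys. It fell by 0.36, with no overlap between the groups (two-sided exact permutation p = 0.1, the smallest that 3 against 3 allows; 0.233 adjusted over 7 ratios). The ratio of C1qc to C1qb differed by −0.22 with overlap (exact permutation p = 0.2, 0.35 adjusted), and by −0.13 without control 2. With the offsets the order of the chains was another, with C1qc above C1qb and C1qa lowest in fold change. The 2 tested genes that flank the C1q block went the other way, Ephb2, an ephrin receptor kinase, by a log2 fold change of −1.72 ± 0.31 (edgeR adjusted p = 0.00362) and Zbtb40 by −1.17 ± 0.2 (edgeR adjusted p = 0.00311). With the offsets neither flanking gene was called (−0.53, edgeR adjusted p = 0.065, and −0.12, edgeR adjusted p = 0.704).

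C1qb, C1qc and C1ra were picked by outcome, as genes that rose and a gene that fell, and no window was at hand for C1qa. The 250 bases before the annotated starts of the genes picked are shown, from RefSeq on GRCm38.p6, an older build than that of the counts. They are chr4:136886201-136886450, minus strand, for C1qb, chr4:136892915-136893164, minus strand, for C1qc, and chr6:124512371-124512620, plus strand, for C1ra. Capitals mark matches to GAGGAA, a core of sites for the macrophage factor PU.1, or to TTNNGNAA, a loose form of C/EBP sites, on either strand.
C1qb: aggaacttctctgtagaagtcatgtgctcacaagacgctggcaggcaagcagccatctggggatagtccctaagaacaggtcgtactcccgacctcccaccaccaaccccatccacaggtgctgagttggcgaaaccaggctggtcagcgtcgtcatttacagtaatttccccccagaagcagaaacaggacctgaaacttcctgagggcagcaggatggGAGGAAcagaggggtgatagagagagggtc
C1qc: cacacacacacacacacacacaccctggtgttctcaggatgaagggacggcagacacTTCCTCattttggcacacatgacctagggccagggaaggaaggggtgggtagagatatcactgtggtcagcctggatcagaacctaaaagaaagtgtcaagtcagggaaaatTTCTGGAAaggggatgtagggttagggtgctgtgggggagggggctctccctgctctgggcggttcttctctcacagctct
C1ra: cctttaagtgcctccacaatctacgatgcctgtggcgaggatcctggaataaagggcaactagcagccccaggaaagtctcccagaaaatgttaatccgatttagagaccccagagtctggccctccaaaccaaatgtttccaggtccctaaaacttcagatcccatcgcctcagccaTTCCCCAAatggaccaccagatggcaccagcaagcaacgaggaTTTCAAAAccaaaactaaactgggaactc
The C1qb window held GAGGAA from 30 to 25 bases before the start. The C1qc window held it on the other strand, from 193 to 188 bases before, and TTNNGNAA from 81 to 74 bases before. The C1ra window held no GAGGAA, and it held TTNNGNAA on the other strand from 72 to 65 and from 29 to 22 bases before the start. The windows of C1s1 and C3, which are not shown, held no GAGGAA either and also held TTNNGNAA. These letters are common: of 32851 windows of 250 bases, 23.3% held GAGGAA and 36.8% held TTNNGNAA. The PU.1-IRF composite motif (2.3% of windows), which can overlap the PU.1 core, and the gamma-activated site TTCNNNGAA (7.02%) had no match in the windows of the 5 genes that were in that table, these 3 and C1s1 and C3. A match is a string of letters and not a measured site, and its part in the direction of a gene was not tested.

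Macrophage markers rose with C1q as a sum, but single markers did not all do so. Of 15 listed macrophage genes 10 rose, 2 fell and 3 were not called, with a median log2 fold change of 0.83. That is 80.0% called, beside 46.9% of all tested genes (22.7% higher and 24.2% lower). With the offsets 9 were higher and 2 lower, beside 34.8% of all genes called. The summed level of the 15 was 166 to 189 CPM in control kidneys and 240.3 to 387 CPM in Pkd1 KO kidneys, with none at 0. Lyz2 (lysozyme) and Mertk (an efferocytosis receptor) were the most abundant. Much of the rise in the sum was Lyz2, at 12.7 to 30.2 CPM in controls and 97.5 to 188 CPM in Pkd1 KO kidneys. Mertk fell (log2 fold change −0.38, edgeR adjusted p = 0.0406), also with the offsets (−0.42, edgeR adjusted p = 0.0212). The general macrophage genes Adgre1 (log2 fold change 0.33, edgeR adjusted p = 0.407) and Cd68 (0.26, adjusted p = 0.398) were not called, and the growth factor receptor gene Csf1r fell (−1.01, adjusted p = 0.00297). With the offsets these were 0.07, −0.21 and −0.31, the last with an edgeR adjusted p of 0.0489. The summed C1q level was 52.4, 33.4 and 50.6 CPM in control kidneys and 66.5, 94.6 and 80.8 CPM in Pkd1 KO kidneys. The log2 ratio of C1q to the summed macrophage markers was −1.97 ± 0.291 in controls and −1.97 ± 0.112 in Pkd1 KO kidneys, a difference of −0.0064 (exact permutation p = 0.9, 0.9 adjusted over 7 ratios). This ratio leans on Lyz2, which made up much of the rise in the marker sum. A ratio without Lyz2 was not computed, so the small difference does not show that C1q kept pace with the other markers. In whole tissue, more cells of a type and more RNA per cell cannot be told apart. The part of macrophage number in the C1q values was not tested.

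**Figure D2:**
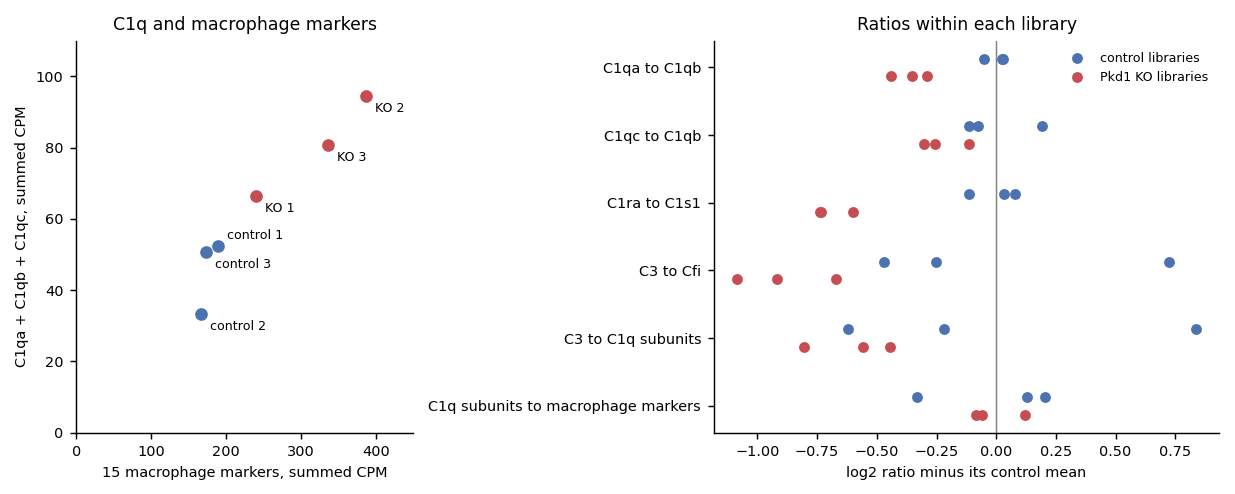
Left, summed CPM of C1qa, C1qb and C1qc (vertical) against summed CPM of 15 macrophage markers (horizontal) in each library. Right, within-library log2 ratios minus the control mean of each ratio, with control libraries in blue and Pkd1 KO libraries in red: the groups are apart for C1qa to C1qb, C1ra to C1s1 and C3 to Cfi, and control 2 is the blue point far to the right in both ratios with C3.

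The proteases of the C1 complex did not move with C1q. C1ra (ENSMUSG00000055172), the mouse gene for C1r, which activates C1s, had 13.04, 8.92 and 11.7 CPM in control kidneys and 6.16, 6.6 and 7.22 CPM in Pkd1 KO kidneys. All Pkd1 KO values lay below all controls and within a narrow range. The means were 11.2 ± 2.1 and 6.66 ± 0.533 CPM, a log2 fold change of −0.75 ± 0.18 (edgeR adjusted p = 0.0107), and −0.82 ± 0.16 with the offsets (edgeR adjusted p = 0.00555). With single libraries left out it stayed called, between −0.92 and −0.65. Its close copy C1rb had 1 read in all libraries together.

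C1s1 (ENSMUSG00000038521), the gene of C1s, which cuts C4 and C2, had 12.2, 9.3 and 10.6 CPM in control kidneys and 10.2, 10.9 and 10.7 CPM in Pkd1 KO kidneys. The Pkd1 KO values lay inside the range of the controls. Its log2 fold change was −0.012 ± 0.16 (edgeR adjusted p = 0.954), with the opposite sign after upper-quartile scaling (0.15), and −0.31 ± 0.14 with the offsets (edgeR adjusted p = 0.118). In the annotation 18.4% of its exon bases also belong to an antisense gene, Gm16567, with 0 reads. C1ra and C1s1 lie next to each other on chromosome 6. The log2 ratio of C1ra to C1s1 was 0.09, −0.06 and 0.14 in controls and −0.68, −0.68 and −0.54 in Pkd1 KO kidneys, a difference of −0.69 with the groups apart (exact permutation p = 0.1, the smallest possible; 0.233 adjusted over 7 ratios). The neighbouring C1rl, a C1r-like protease gene, also fell (−0.47 ± 0.15, edgeR adjusted p = 0.027; −0.53 with the offsets, adjusted p = 0.0148). On the other side C1s2, a copy of C1s1 at 0.0673 to 0.41 CPM, rose (1.505 ± 0.54, edgeR adjusted p = 0.0453). C1s2 lost its call with the offsets (1.13, adjusted p = 0.147) and with any library but control 2 left out (adjusted p up to 0.207, without KO 3).

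C4b, which encodes C4, the first substrate of C1s, was low and varied within both groups. It (ENSMUSG00000073418) had 3.51, 5.95 and 2.51 CPM in control kidneys and 1.58, 4.87 and 2.93 CPM in Pkd1 KO kidneys. Control 2 and KO 2 were the highest of their groups, and the groups overlapped throughout. The log2 fold change was −0.35 ± 0.43 (edgeR adjusted p = 0.517), 0.45 ± 0.38 with the offsets (edgeR adjusted p = 0.378) and 0.02 without control 2, so its sign depends on the setting. C4a, a close copy of C4b, had 1.09, 0.64 and 2.35 CPM in control kidneys and 0.445, 0.41 and 0.473 CPM in Pkd1 KO kidneys. C4a fell (−1.60 ± 0.47, edgeR adjusted p = 0.0211), not with the offsets (−0.94, edgeR adjusted p = 0.206) nor without KO 1 (0.0664), KO 2 (0.0772) or KO 3 (0.0574). Reads that fit both copies equally are not counted for either. The split between C4b and C4a is therefore uncertain. C2, the partner of C4 in the C3-cutting enzyme, had a log2 fold change of 0.52 ± 0.21 (edgeR adjusted p = 0.0703), with groups apart at 5.79 to 7.52 and 7.71 to 12.3 CPM, and passed with the offsets (0.73, edgeR adjusted p = 0.0225).

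C3 (ENSMUSG00000024164), the hub of the cascade, had 9.05, 12.2 and 6.48 CPM in control kidneys and 7.56, 14.2 and 11.1 CPM in Pkd1 KO kidneys. The groups overlapped, with KO 1 between controls 3 and 1. The log2 fold change was 0.24 ± 0.28 (edgeR adjusted p = 0.502). C3 is long (5143 exon bases), and with the offsets it was called, at 0.77 ± 0.24 (edgeR adjusted p = 0.0359), and at 0.94 (adjusted p = 0.0127) with the offsets and without control 2. Without control 3 the plain fit gave −0.0068 (adjusted p = 0.984). Whether C3 changed thus depends on whether the trend on gene length and GC content is removed.

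Cfb (ENSMUSG00000090231), the gene of factor B, the protease of the alternative pathway, had 16.8, 19.4 and 19.2 CPM in control kidneys and 16.0, 7.24 and 9.18 CPM in Pkd1 KO kidneys. The groups were apart, but KO 1 lay just under control 1. The log2 fold change was −0.78 ± 0.27 (edgeR adjusted p = 0.041) and −0.76 ± 0.25 with the offsets (edgeR adjusted p = 0.0388). The call ended with upper-quartile scaling (−0.62, adjusted p = 0.0823) and without control 1 (−0.87, adjusted p = 0.0716), KO 2 (−0.55, adjusted p = 0.136) or KO 3 (−0.67, adjusted p = 0.133), and the value was −1.17 without KO 1. In GENCODE M21, 79.5% of the exon bases of Cfb are shared with Gm20547, a gene model on the same strand that runs through Cfb and C2. Gm20547 had 0 reads in all 6 libraries. If the annotation behind the counts holds the same models, reads in the shared bases count for neither gene and the Cfb values rest on the other 579 exon bases. C2 shares 46.9% of its exon bases.

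Cfi (ENSMUSG00000058952), the gene of factor I, had the largest fold change of the 9 genes in the fit without offsets; with them C1qc, C1ra, C3, Cfb and C1qb were larger in size. Controls had 8.02, 5.27 and 6.73 CPM and Pkd1 KO kidneys 12.3, 16.9 and 15.9 CPM. The lowest Pkd1 KO kidney was above the highest control. The means were 6.67 ± 1.37 and 15.1 ± 2.43 CPM, a log2 fold change of 1.17 ± 0.20 or 2.26-fold (edgeR adjusted p = 0.00335). With the offsets it was 0.71 ± 0.18 (edgeR adjusted p = 0.0149). With single libraries left out it stayed called, between 0.99 and 1.30. The genes on either side did not rise: Gar1 fell (−0.83 ± 0.18, edgeR adjusted p = 0.00615; −0.87 with the offsets) and Pla2g12a stood at −0.14 ± 0.17 (edgeR adjusted p = 0.5005), and at −0.53 with the offsets (edgeR adjusted p = 0.0438).

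C3 and its inhibitor Cfi can be set against each other within a library. The log2 ratio of C3 to Cfi was 0.16, 1.14 and −0.05 in controls and −0.67, −0.25 and −0.5 in Pkd1 KO kidneys, a difference of −0.89 with the groups apart (exact permutation p = 0.1, 0.233 adjusted over 7 ratios). It was −0.53 without control 2, and with the offsets the fold changes of C3 (0.77) and Cfi (0.71) were close to each other. The ratio of C3 to the C1q chains differed by −0.60 (exact permutation p = 0.3, 0.42 adjusted), and by −0.18 without control 2. With the offsets the fold change of C3 lay within the range of the 3 chains (0.46 to 0.92).

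**Figure D3:**
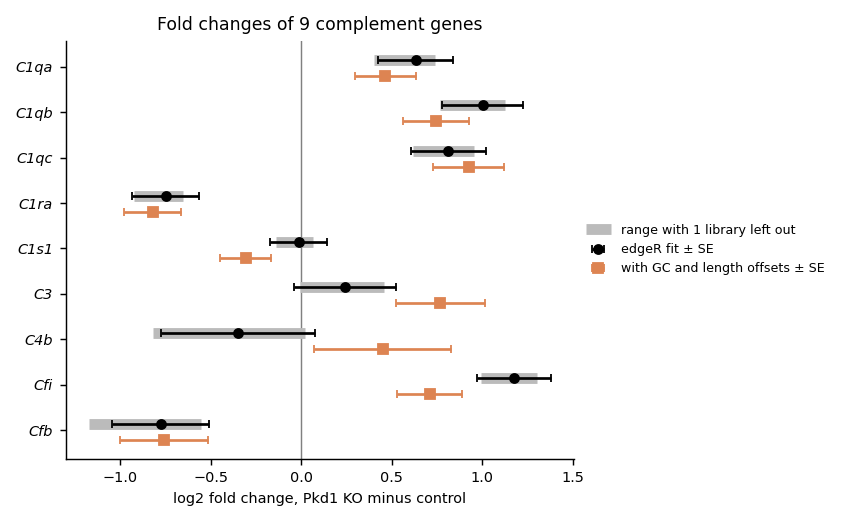
Log2 fold change, Pkd1 KO minus control, of the 9 genes in edgeR's fit (black, ± SE), its range with 1 library left out (grey) and the fit with GC and length offsets (orange, ± SE). The grey bars of C1s1, C3 and C4b reach 0, and the offsets move C3 and C4b up and Cfi down.

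Per kilobase of exon, and leaving Cfb aside, the order of levels in controls was C1qb, C1qa, C1qc, C1s1, C1ra, Cfi, C3 and C4b. For C1s1 the 2553 exon bases not shared with Gm16567 were used, of 3129 in all. Its place above C1ra in controls depends on that choice. C1qb and C1qa overlapped, as did each neighbouring pair from C1s1 to C3. In Pkd1 KO kidneys Cfi, at 6.78 ± 1.1 CPM per kilobase against 3.01 ± 0.619 in controls, stood above C1s1 (4.15 ± 0.152), C1ra (2.24 ± 0.179), C3 (2.13 ± 0.643) and C4b (0.549 ± 0.29). There C1qb and C1qa overlapped, as did C1ra and C3, and the other neighbours did not.

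The profiles of the genes over the 6 libraries were also compared directly, as the root mean square difference of log2 CPM after centring each gene on its own mean. Among the 9, C1qb and Cfi were closest (0.129), then C1qa and C1qc (0.144) and C1qb and C1qc (0.158). C3 was closest to C4b (0.333). Outside the 9, among 11080 candidates (protein-coding, mean log2 CPM 2 or more), the profiles most like the mean of the C1q chains were those of Vgll3 (0.048), Gbp2 (0.0495), Haus3 (0.0665), H2-Eb1 (0.0733) and Mcl1 (0.0745). In that order their log2 fold changes were 0.79, 0.81, 0.84, 0.66 and 0.76, and with the offsets 0.48, 0.40, −0.10, 0.38 and 0.63. The profiles most like C3 were those of Pola1 (0.137), Cep170 (0.141), Syncrip (0.146), Gdf15 (0.154) and Fn1 (0.158), none of them called (lowest edgeR adjusted p = 0.243, for Syncrip). These likenesses describe 6 libraries and carry no test.

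The rest of the pathway was read from a list of 55 complement genes in 7 roles that holds the 9. Of its 44 tested genes 15 rose, 7 fell and 22 were not called, so 22 of 44 were called, beside 46.9% of all tested genes. The median log2 fold change was 0.46. With the offsets 10 rose and 8 fell of 44, beside 34.8% of all genes called. Without KO 2, 11 of 44 were called, beside 5071 of 18685 over all genes, and without KO 3, 11 of 44 beside 5871 of 18630. Below, adjusted p-values are those of edgeR's quasi-likelihood test.

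Among lectin pathway initiators, which recognise sugars, 2 of 5 tested rose and none fell, beside 46.9% of all tested genes called (22.7% higher). They were Mbl1 and Mbl2, the latter at only 0.116 to 0.615 CPM. With the offsets 1 of 5 was called, beside 34.8% of all genes, and it was neither of these. It was Masp1 (1.00, adjusted p = 0.0154), not called in the plain fit (0.52, adjusted p = 0.0721). Mbl1, a mannose-binding lectin, had a log2 fold change of 0.997 ± 0.25 (adjusted p = 0.0123), at 2.35 to 4.57 CPM in control kidneys and 6.75 to 8.17 CPM in Pkd1 KO kidneys, and 0.48 with the offsets (adjusted p = 0.082). In the terminal pathway, which builds the membrane pore, 2 of 5 rose and 1 fell, beside 46.9% of all tested genes called. With the offsets 1 was higher and 2 lower, beside 34.8%. C8a fell (−0.55 ± 0.16, adjusted p = 0.0208) and C8g rose (0.71 ± 0.22, adjusted p = 0.0254), although their products are chains of the same C8 protein. With the offsets they were −0.79 (adjusted p = 0.00703) and 0.43 (adjusted p = 0.0464). The C8a call ended without control 1 (adjusted p = 0.0609), KO 2 (0.0848) or KO 3 (0.0952) and with upper-quartile scaling (0.059), and that of C8g without control 1 (0.0784), KO 1 (0.0772), KO 2 (0.0777) or KO 3 (0.0688). Hc, the mouse gene of C5, was too low to be tested, at 0 to 0.197 CPM.

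Of the alternative pathway genes other than C3 and Cfb, both rose, beside 22.7% of all tested genes. Properdin, Cfp, which stabilises the C3-cutting enzyme, went from 2.26 to 2.99 CPM in controls to 3.9 to 5.51 CPM in Pkd1 KO kidneys (log2 fold change 0.77 ± 0.21, adjusted p = 0.0173; 0.0816 without KO 2 and 0.0524 without KO 3; 0.72 with the offsets, 0.0224). Factor D, Cfd, the protease that activates factor B and is known as a product of fat cells, had 2.7, 1.94 and 11.2 CPM in control kidneys and 15.3, 7.69 and 46.5 CPM in Pkd1 KO kidneys. The groups overlapped, and KO 3 was far above the rest. Its log2 fold change was 2.15 ± 0.77 (adjusted p = 0.047). It lost its call with the offsets (1.94, adjusted p = 0.0539) and without control 1 (1.81, 0.153), control 2 (1.73, 0.0568), KO 1 (2.37, 0.073) or KO 3 (1.13, 0.219). With the sample number as a block in edgeR's fit Cfd kept its call (2.18 ± 0.19, adjusted p = 0.007).

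Some fat cell genes followed Cfd from library to library, and others did not. Adiponectin, Adipoq, had 0.776, 0.259 and 2.56 CPM in control kidneys and 4.26, 2.0 and 9.97 CPM in Pkd1 KO kidneys, with the same order of the 6 libraries as Cfd. It was called in the plain fit (2.20 ± 0.77, adjusted p = 0.043), not with the offsets (1.66, adjusted p = 0.0841). Leaving out control 1, KO 1 or KO 3 also ended that call. Cidec, Plin1 and Retn were not called in either fit. Lipe, the hormone-sensitive lipase gene, went the other way, at 8.21 to 14.4 CPM in controls and 4.83 to 5.8 CPM in Pkd1 KO kidneys (−1.02, adjusted p = 0.00845; −0.20 with the offsets, adjusted p = 0.37). Fabp4 was highest in KO 3 and lowest in control 2, as Cfd was, but in KO 2 it was above control 3. Of 7 listed adipocyte genes 6 were tested, of which 2 rose and 1 fell, beside 46.9% of all tested genes called. Lep was too low to be tested. With the offsets 1 was higher and 0 lower, beside 34.8% of all genes called. The summed level of the list, mostly Fabp4, was 54.8 to 96.4 CPM in control kidneys and 156 to 205 CPM in Pkd1 KO kidneys, and none of the 7 was at 0 in all libraries. The part of adipose tissue in the Cfd values was not tested.

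**Figure D4:**
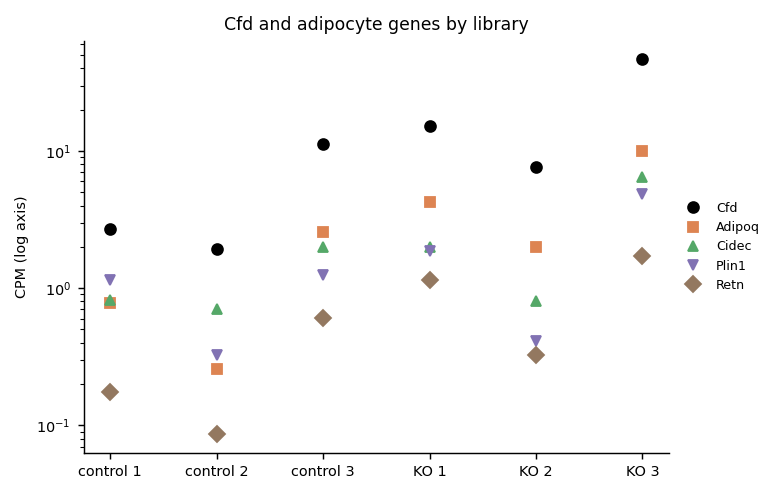
CPM on a log axis of Cfd (black) and of the adipocyte genes Adipoq, Cidec, Plin1 and Retn in each of the 6 libraries. These adipocyte genes were chosen after their values were seen. Fabp4, the most abundant of the list, and Lipe, which went the other way, are not drawn. Cfd and Adipoq rank the libraries alike, from control 2 (1.94 and 0.259 CPM) to KO 3 (46.5 and 9.97 CPM).

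Among 7 tested soluble regulators 2 rose and 2 fell, both in the plain fit and with the offsets. The shares of all genes called were 46.9% and 34.8%. Clusterin, Clu, which blocks the terminal pore and is abundant in kidney, fell most in level, from 301, 236 and 257 CPM in controls to 86.9, 103 and 89.5 CPM in Pkd1 KO kidneys. Its groups were far apart, with a log2 fold change of −1.51 ± 0.15 (adjusted p = 0.00178) and −1.12 with the offsets (adjusted p = 0.00192). Serping1, the inhibitor of C1r and C1s, had 40.3 to 60.2 CPM in control kidneys and 42.03 to 52.1 CPM in Pkd1 KO kidneys (−0.15 ± 0.18, adjusted p = 0.536), with the opposite sign after upper-quartile scaling (0.01) and −0.28 with the offsets (adjusted p = 0.167).

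Membrane regulators shield the body's own cells, and of 7 tested 3 rose and 1 fell. That is 57.1% called, beside 46.9% of all tested genes, with a median log2 fold change of 0.58. With the offsets 1 was higher and 2 lower, beside 34.8% of all genes called, and the median was −0.09. Cd59b was called only with the offsets (−0.57, adjusted p = 0.042), and stood at 0.20 without them (adjusted p = 0.507). Cr1l, which encodes Crry, the broad C3 inhibitor of mouse cells, rose from 47.2 to 74.9 CPM in controls to 109 to 113 CPM in Pkd1 KO kidneys (log2 fold change 0.86 ± 0.18, adjusted p = 0.00544; 0.51 with the offsets, adjusted p = 0.0292). Its groups did not overlap, and the 3 Pkd1 KO kidneys differed little. Cd46 (0.78 ± 0.27, adjusted p = 0.0406) and Cd59a, an inhibitor of the terminal pore (0.58 ± 0.21, adjusted p = 0.0487), rose in the plain fit. Their values with the offsets were 0.36 (adjusted p = 0.315) and −0.09 (adjusted p = 0.622), and both lost the call with most single libraries left out (adjusted p up to 0.134 for Cd46 and 0.158 for Cd59a, each without control 1). Cd55, which speeds the decay of C3-cutting enzymes, had 11.4 to 25.3 CPM in control kidneys and 27.5 to 30.3 CPM in Pkd1 KO kidneys (0.66 ± 0.25, adjusted p = 0.0584; 0.00393 without control 3; 0.36 with the offsets, 0.203). Susd4 fell (−1.06 ± 0.25, adjusted p = 0.00987), and also with the offsets (−0.76, adjusted p = 0.0294).

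None of the 7 tested complement receptor genes was called by edgeR, beside 46.9% of all tested genes, or with the offsets, beside 34.8%. DESeq2 also called 0 of them, beside 8822 of 33119 over all genes. In edgeR's test 1 had an unadjusted p under 0.05, Itgam. The median log2 fold change of the 7 was 0.36. Itgam, a chain of complement receptor 3, stood at 1.05 ± 0.44 (adjusted p = 0.0786) and was called without control 3 (1.38, 0.0279) or KO 3 (1.34, 0.0434); it is named after its values were seen. In GENCODE M21, 68.7% of its exon bases are shared with the same-strand model Gm49368, the limit given above for Cfb and C2. The anaphylatoxin receptor genes C3ar1, at 2.27 to 2.65 CPM in control kidneys and 2.42 to 3.65 CPM in Pkd1 KO kidneys (0.36 ± 0.22, adjusted p = 0.201), and C5ar1, at 0.718 to 0.985 and 0.768 to 1.33 CPM (0.40 ± 0.30, adjusted p = 0.297), had overlapping groups. With the offsets they stood at −0.07 and 0.12.

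**Figure D5:**
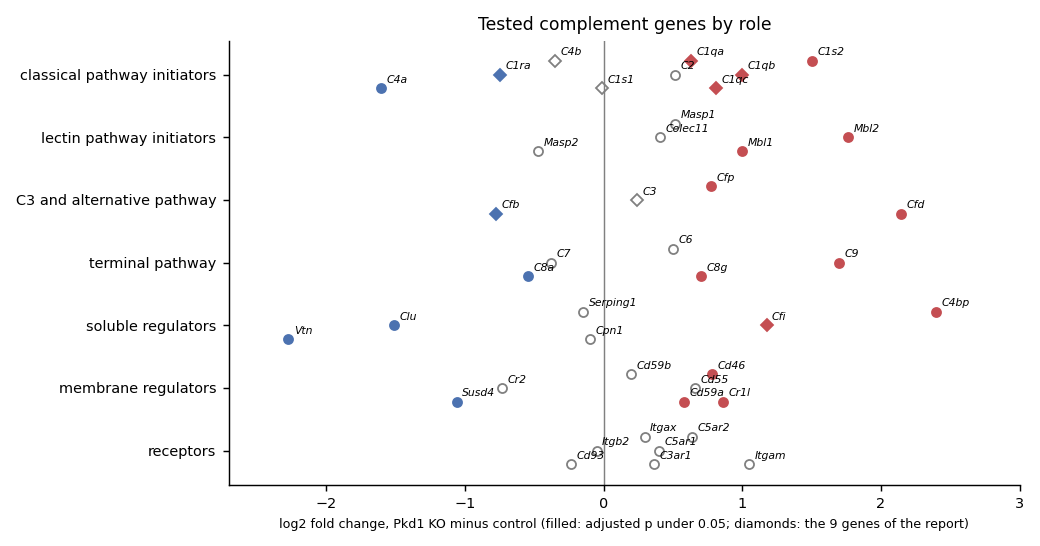
Log2 fold change, Pkd1 KO minus control, of 43 of the 44 tested complement genes in 7 roles (rows). Filled red symbols rose and filled blue ones fell at an edgeR adjusted p under 0.05, open symbols were not called, and diamonds are the 9 genes: C1q and Cfi lie to the right, C1ra and Cfb to the left, and the row of receptors has open symbols only.

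Markers of other cell types were counted in the same way, beside the 46.9% of all genes called (34.8% with the offsets). Of 10 hepatocyte genes, checked because the liver makes most plasma complement, 8 were tested, none rose and 3 fell. Ahsg and Cps1 were too low to be tested. The summed level, mostly Ttr, was 192 to 251 CPM in control kidneys and 165 to 220 CPM in Pkd1 KO kidneys. Alb fell (−0.99, adjusted p = 0.0134; −1.44 with the offsets, adjusted p = 0.00685). Fibroblast genes, from cells that also make C1r, C1s and C3, split into 5 higher and 4 lower of 10, with summed levels that overlapped (239 to 301 and 229 to 329 CPM). With the offsets 4 fibroblast genes were higher and 1 lower, and Col1a2 turned from −0.51 to 0.62. The T cell and NK cell list had 5 higher and 0 lower of 8, endothelial genes 2 higher and 6 lower of 8, and podocyte genes 0 higher and 4 lower of 5. With the offsets these became 2 and 0, 1 and 3, and 0 and 1. Neutrophil genes numbered 2 higher and 0 lower of 3 tested, with Ly6g and Mpo at 0 in every library, and none of the 3 was called with the offsets. Proximal tubule genes numbered 1 higher (Kap, which carries the higher summed level given above; not called with the offsets) and 6 lower of 10, those of the distal nephron and collecting duct 1 higher and 7 lower of 8, and genes of injured tubule 4 higher and 1 lower of 8. Their part in the complement values was not tested.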

How the data were processed

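RNA sequencing of 6 whole snap-frozen mouse kidneys gave 7 tables of raw read counts per gene, deposited by the authors without normalization (unit: counts). Per the submitters' processing notes they used cutadapt 4.0, FastQC 0.11.8, STAR 2.6.1e and GRCm39; which gene models were counted is not stated there. The column that ignores strand was used, since the first strand column held 49.1% to 49.96% of strand reads. The 2 runs of control 1 were summed (39142952 and 11313677 gene counts). A chi-square comparison gave 3.59 per gene between these runs and 26.1 or more between libraries, so none was merged. The 4 lines that name no gene held 22.9% to 26.3% of reads and stayed out. STAR counts reads that map to 1 place.

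Symbols, exon lengths and GC content came from GENCODE M21 (GRCm38) by identifier (52073 of 56923 matched). The test was edgeR 4.0.16 (R 4.3.3): filterByExpr, TMM, quasi-likelihood F test, Benjamini-Hochberg at 0.05 over all genes; SE is the absolute log2 fold change over the square root of F. Offsets were a robust loess (span 0.3) of each library's log2 CPM, relative to the gene's mean, on GC content and log2 exon length. Ratios used CPM plus 0.5 and two-sided exact permutation. Alternatives included DESeq2 1.42.0, other scalings, no filter and each library left out; the offsets without control 2 were added after seeing the data. Scripts were tested on simulated data.

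The 9 genes and the lists were chosen with earlier results of these data known. The rule for named genes took the 9, 12 direct partners, and per role up to 3 called genes in each direction with mean log2 CPM 0 or more. C4a, C1rb, the flanking genes, C1rl, Mbl2, Masp1, Cd59b and the fat cell genes shown singly were chosen after their values were seen. For 1 gene that the rule took, and 1 of the 7 ratios, no result is reported here; both stay in the counts and in the adjustment. The labels do not say whether the shared sample numbers 1 to 3 pair the groups, and the main fit did not treat them as pairs.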

Additional observations from a re-analysis of the deposited data

How the results depend on the processing

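Of 126 refits of the 9 fold changes, 105 kept direction and call. GC and length offsets ended the call of C1qa (0.46), called C3 (0.77) and turned C4b to 0.45; with control 2 also left out these were 0.33, 0.94 and 0.70, and Cfb (−0.69, edgeR adjusted p = 0.0518) lost its call. Upper-quartile scaling turned C1s1 to 0.15 and ended the call of Cfb (−0.62). The replicate block ended that of C1qa (0.66, edgeR adjusted p = 0.0559) and gave 7397 calls in all. The block is a number only: same-numbered libraries had correlations of their deviations of 0.0395, −0.126 and −0.0883. With 1 library left out C1qa ranged from 0.40 to 0.74, C1qc from 0.62 to 0.95, C1s1 from −0.14 to 0.066, C3 from −0.0068 to 0.46, C4b from −0.82 to 0.020 and Cfb from −1.17 to −0.55. The calls numbered 5071 to 10318 over all genes, 3 to 6 over the 9 genes and 11 to 24 over the complement list. C1s1 was 0.066 without control 1 and 0.015 without KO 1, C3 −0.0068 without control 3 and C4b 0.020 without control 2. The ratio of C1q to macrophage markers ranged from −0.17 to 0.10, with 0.0060 for the first run of control 1 only; for the ratios no setting can reach 0.05. The cause of these changes was not tested. With 3 libraries a group, small differences are not detectable: C4b and C3 had standard errors of 0.43 and 0.28 on the log2 scale.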
